A study of Mus musculus with 2 samples.

Results

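The nuclei described here were chosen from the embryonic mouse brain library as candidate hypothalamic neurons that lacked the Sim1 and Otp programme. A barcode was chosen when it held at least 1500 unique molecular identifiers (UMIs, each standing for 1 captured RNA molecule), under 5% mitochondrial UMIs, at least 2 UMIs summed over Nkx2-1, Nr5a1, Fezf1, Hmx2, Hmx3 and Six6, at most 1 UMI of Sim1 and Otp, at most 3 UMIs of Sox2, Hes5 and Nes, and 0 UMIs of Lhx6 and Lhx8. Of 7531 barcodes with at least 1500 UMIs, 171 met the rule, a share of 2.27% with an exact binomial 95% interval of 1.95% to 2.63%. The step that asked for 2 UMIs of the 6 genes left 450 nuclei, and the limits on Sim1 and Otp, on the progenitor genes and on Lhx6 and Lhx8 then removed 110, 62 and 107 nuclei.

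The library came from a frozen brain section of embryonic mouse tissue of the C57BL/6J strain, taken at embryonic day 14 (E14) with no treatment described, and was profiled by Slide-tags, in which nuclei take up spatial barcodes in the tissue before single-nucleus RNA sequencing. An adult mouse brain library of the same series shared 1 barcode with it and was not used. The cut was sagittal, and where each nucleus lay in it was not used here. Since the E14 group was 1 library, no test between samples was possible, and each interval below covers counting error only, with every UMI treated as independent even where a single nucleus supplied many of them.

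The hypothalamus is the ventral part of the forebrain that controls feeding, body temperature, reproduction and hormone release. Nkx2-1 is a homeobox factor of its ventral and tuberal region and is also used in the ventral telencephalon. Nr5a1 and Fezf1 mark the developing ventromedial nucleus, Hmx2 and Hmx3 are paired homeobox genes used in the arcuate and neighbouring nuclei, and Six6 is a homeobox gene of the ventral hypothalamus, the pituitary and the eye. Sim1 and Otp mark the paraventricular and supraoptic lineages that were set aside, and Lhx6 and Lhx8 mark ventral telencephalic neurons and some hypothalamic ones.

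The chosen nuclei were deeper than the rest of the library. They held 1612 to 40136 UMIs with a median of 7639, against a median of 4921 in the 7360 other nuclei. Of the 171 chosen nuclei, 164 (95.9%) held at least 5 UMIs over the neuronal genes Dcx, Stmn2, Tubb3, Elavl4 and Map2, as did 85.3% of the others. The nuclear RNA Malat1 took 3.65% of their UMIs and 3.59% of those of the other nuclei, and 16 chosen nuclei (9.36%) were among the 653 with the highest doublet scores, against 8.11% of the others.

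The rule rested on few molecules. In 99 of the 171 nuclei (57.9%) the 6 genes together gave exactly 2 UMIs, 41 nuclei held 3, 13 held at least 5, and the highest number was 8. Just outside the threshold, 386 nuclei met every other step with exactly 1 UMI, and their median depth was 5531 UMIs against 7544 in the nuclei with exactly 2. The background of the rule was measured in classes that should not hold these genes. Among nuclei that met the other steps, 7 of 266 cortical excitatory nuclei with Neurod6 (2.63%, 1.06% to 5.35%) and 3 of 140 endothelial nuclei (2.14%, 0.444% to 6.13%) also held 2 UMIs of the 6 genes, against 171 of all 5279 such nuclei (3.24%, 2.78% to 3.75%). The median depths of these 2 classes, over all their nuclei, were 8917 and 11028.5 UMIs, against 4413 in the 5279 nuclei. Scaled by depth, the 6 genes were at 23.1 and 20.3 CPM in the 2 classes and 29.1 CPM in the 5279 nuclei. The share among the 5279 nuclei was thus close to the share in classes that should lack the genes, and the interval of each class held it. A deeper nucleus meets a fixed threshold more easily, so these shares do not compare background at equal depth. For this reason the nuclei are called by the rule below, and their label was checked against genes that the rule did not use.

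The genes of the rule differed in how many of the chosen nuclei they reached, which is a description of the choice and not a result of it. Nkx2-1 (chromosome 12, 56531958 to 56536908, minus strand, mm10) had UMIs in 124 of the 171 nuclei. Hmx2 (chromosome 7, 131548773 to 131558014, plus strand) was detected in 43, Fezf1 (chromosome 6, 23245044 to 23248362, minus strand) in 36 and Nr5a1 (chromosome 2, 38692656 to 38714542, minus strand) in 22. Hmx3 lies 3847 bases before Hmx2 on the same strand and was detected in 19 nuclei. Six6 (chromosome 12, 72939892 to 72944899, plus strand) was detected in 15.

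These genes divided the nuclei into subsets that hardly met. Nr5a1 or Fezf1 without an Hmx gene marked 48 nuclei, and Hmx2 or Hmx3 without Nr5a1 or Fezf1 marked another 48. Only 2 nuclei held a gene of both pairs, 4 held Six6 without any of those 4 genes, and 69 were chosen on Nkx2-1 alone. Of the 22 nuclei with Nr5a1, 19 (86.4%) also held Nkx2-1, as did 26 of the 36 with Fezf1. Of the 43 nuclei with Hmx2, 12 (27.9%) held Nkx2-1, 12 held Hmx3 and none held Fezf1. The rule asks for a sum over the genes, so it bears on how often they occur together, and no test of these overlaps was made.

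**Figure D1:**
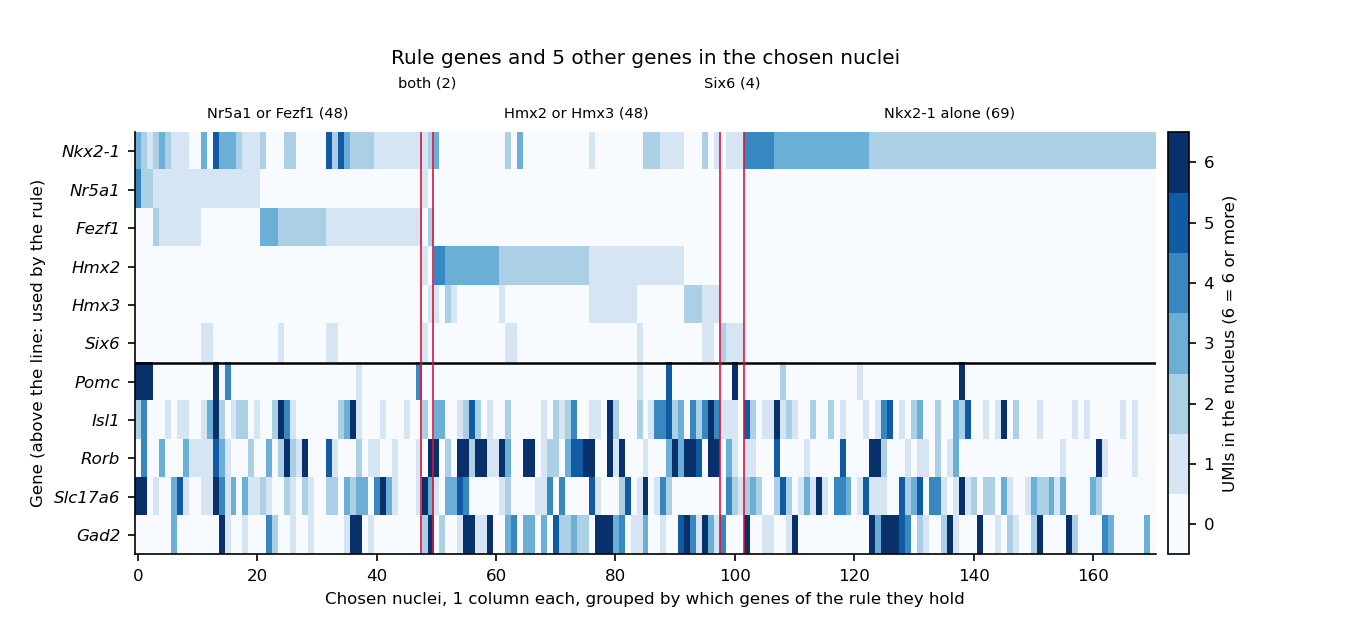
UMIs of the 6 genes of the rule and of 5 other genes (y axis) in each of the 171 chosen nuclei (x axis, 1 column each, grouped by the rule genes they held), with colour from 0 to 6 or more UMIs. The 48 nuclei with Nr5a1 or Fezf1 mostly held Nkx2-1 as well, most of the 48 with Hmx2 or Hmx3 did not, and high Pomc counts sat in few nuclei.

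To find what else these nuclei expressed, UMIs were summed over the 171 nuclei and over all other nuclei and scaled to UMIs per 1000000 UMIs of the group (CPM). A gene was counted as higher when its CPM ratio was at least 2, and as lower when it was at most 0.5, with the 95% interval of the ratio on the same side of 1. Of 19907 genes with at least 20 UMIs, leaving out the genes of the rule, 322 (1.62%) were higher and 1083 (5.44%) were lower in the chosen nuclei. Without the single nucleus that held most UMIs of each gene, 154 of the 322 were still higher. Against the 5944 other neurons, 276 of 18983 genes (1.45%) were higher, 125 of them also without their highest nucleus, and 502 (2.64%) were lower.

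Some of the listed transcription factor genes were higher, and the counts for each whole list follow below them. Nkx2-4, a close relative of Nkx2-1, was at 14.8 CPM in the chosen nuclei and 1.84 in the others, a ratio of 8.03 (4.92 to 12.6), with UMIs in 19 nuclei and no more than 2 in any. Sox14, a factor of ventral diencephalic neurons, was at 15.4 against 3.04 CPM, a ratio of 5.07 (3.19 to 7.74), in 20 nuclei. Nkx2-2, a homeobox factor of the ventral neural tube, was at 17.2 against 4.48 CPM, a ratio of 3.84 (2.50 to 5.69), in 19 nuclei. Isl1, a LIM homeobox factor used by arcuate and other ventral neurons, was spread more widely. It had UMIs in 87 of the 171 nuclei and was at 142 against 53.6 CPM, a ratio of 2.64 (2.30 to 3.02). Six3, a homeobox factor of the anterior forebrain, was at 48 against 23.9 CPM, a ratio of 2.01 (1.58 to 2.52) that was below 2 against other neurons, at 1.93.

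Lists of genes of single hypothalamic regions had unequal counts. Over all genes measured, 1.62% were higher and 5.44% lower against all other nuclei, which is the share to set beside each count here and below. Of the 8 measured ventromedial nucleus genes outside the rule, 4 were higher and none lower. They were Sox14, Nkx2-2, Amigo2, a cell adhesion gene at a ratio of 6.29 (3.85 to 9.86), and Adcyap1, the gene of the peptide PACAP, at 2.81 (1.89 to 4.03). The median ratio of this list was 2.40, against 0.925 over all genes measured. Of 9 arcuate and dorsomedial genes 2 were higher, Isl1 and Six3, with a median ratio of 0.883. Against other neurons the median ratio was 1.45 for the arcuate and dorsomedial list and 2.12 for the ventromedial list, against 0.962 over all genes. The ratio of summed levels, against all other nuclei, was 2.14 for the arcuate and dorsomedial list and 1.54 for the ventromedial list. Of 11 mammillary genes 1 was higher and 2, Lmx1a and Emx2, were lower, and the higher one, Foxa1, rested on 5 UMIs in 3 nuclei. Of 8 anterior and suprachiasmatic genes none was higher and 2 were lower, Lhx1 at 25.2 against 78.4 CPM and Lhx2 at 26.5 against 60.6. In the lateral and tuberal list of 6 genes, Nkx2-4 was higher, and Meis2, a TALE homeobox factor that striatal neurons express strongly, was lower at 464 against 1185 CPM.

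**Figure D2:**
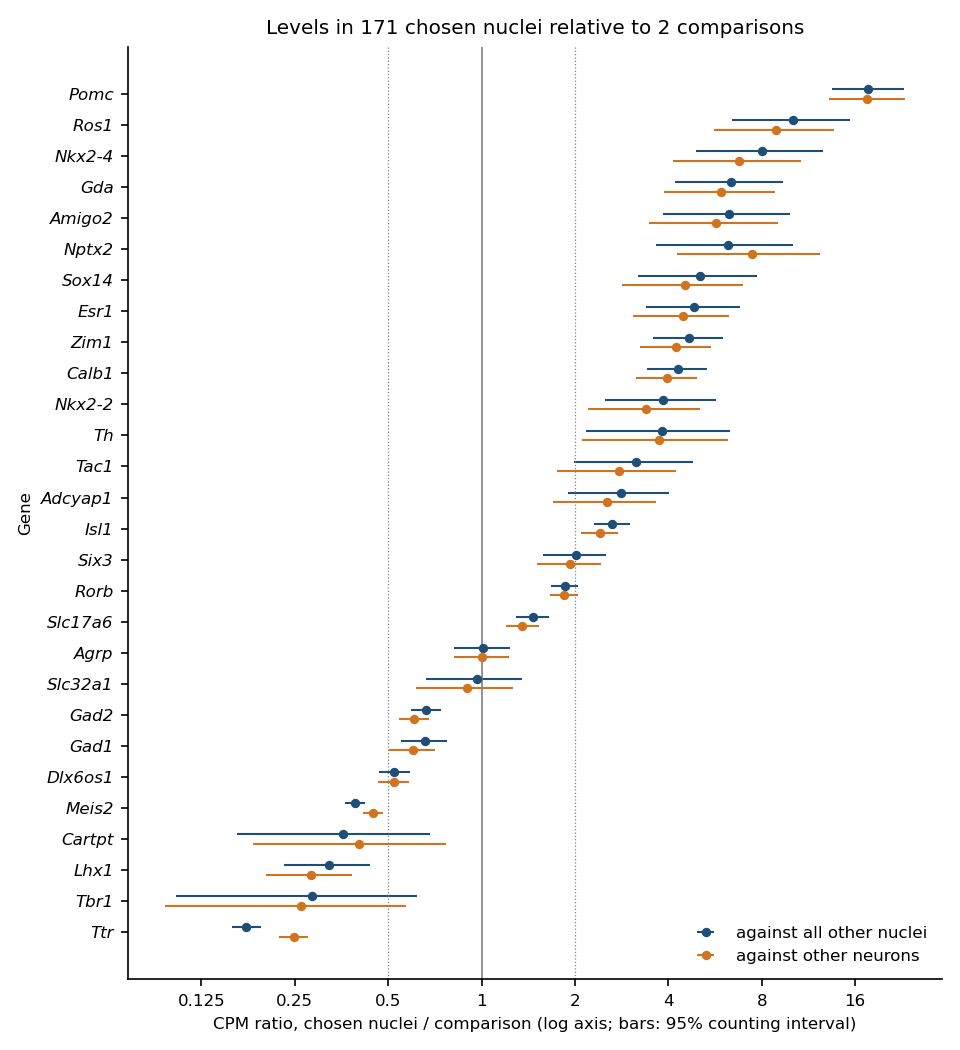
CPM in the 171 chosen nuclei divided by CPM in all other nuclei (blue) or in other neurons (orange) for 28 genes (y axis), on a log axis with 95% counting intervals and dotted lines at ratios of 0.5 and 2. Pomc was at 17.6 times and Nkx2-4 at 8.03 times the level of all other nuclei, Agrp was at 1.01 times, and Meis2 was below 0.5.

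Pomc, the precursor gene of melanocortins and beta-endorphin that marks arcuate neurons which restrain feeding, had the largest ratio of the genes with at least 50 UMIs. It lies on chromosome 12 at 3954951 to 3960642, plus strand. Its level was 53.5 CPM in the chosen nuclei and 3.04 in the others, a ratio of 17.6 (13.5 to 23.0). The signal came from few nuclei, since 13 held a Pomc UMI and 9 of them held 82 of the 87 UMIs.

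The 9 nuclei with at least 3 Pomc UMIs had 23, 16, 11, 7, 6, 6, 5, 4 and 4 of them. All 9 held Nkx2-1 and 5 held Nr5a1, but these are rule genes, so the choice of nuclei bears on these counts and on the subsets. For genes outside the rule, 8 of the 9 held the glutamate transporter gene Slc17a6, 6 held Isl1, and 1 held a GABA gene, Gad2. Over all 171 chosen nuclei, 100 held Slc17a6, 87 Isl1 and 77 Gad2. The 9 nuclei were also deeper, with a median of 11445 UMIs against 7639. By subset, 6 belonged to the Nr5a1 or Fezf1 nuclei and 1 each to the Hmx, Six6 and Nkx2-1 alone nuclei. The nucleus with 23 Pomc UMIs held 1 UMI each of Nkx2-1, Six6 and Isl1. The next, with 16, held 5 UMIs of Nkx2-1, 1 of Nr5a1, 10 of Isl1, 8 of Slc17a6 and 3 of Sox14 among 20424 UMIs. The third, with 11, held 4 UMIs of Nr5a1 and 3 of Nkx2-1. Outside the chosen nuclei, 10 nuclei had at least 3 Pomc UMIs, the highest with 21. Of those 10, 5 held none of the 6 rule genes, 2 held 1 UMI and 3 held at least 2 but were removed by another step.

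A few other neuropeptide genes were higher or lower. Of 18 measured neuropeptide genes 4 were higher and 2 lower, beside 1.62% and 5.44% of all genes measured. Tac1, the gene of substance P, was at 14.8 against 4.68 CPM, a ratio of 3.16 (1.99 to 4.80), in 17 nuclei. Pdyn and Cck, the genes of dynorphin and cholecystokinin, were higher on 9 and 6 UMIs, and neither was without its highest nucleus. Cartpt, the gene of the CART peptide, was lower at 5.54 against 15.5 CPM, and Nxph4, of the neurexophilin family, at 4.31 against 19.0. Agrp, the gene of the arcuate melanocortin antagonist, was at 60.9 CPM against 60.4, a ratio of 1.01 (0.817 to 1.23), with UMIs in 61 nuclei. The annotated Agrp gene spans 70696 bases, and Gm45855 and Gm5914 overlap it on the same strand. How far the UMIs counted for Agrp, here and below, came from the peptide transcript was not tested. Pmch, the melanin-concentrating hormone gene, was at 83.1 against 54.8 CPM, but 58 of its 135 UMIs came from 1 nucleus, and without it the ratio was 0.865. Of the 26 neuropeptide genes listed, 11 had no UMI in the chosen nuclei, among them Avp, Oxt, Vip, Crh, Hcrt, Kiss1 and Gnrh1.

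A hormone receptor gene was higher in a small number of nuclei. Esr1, the oestrogen receptor alpha gene, was at 24.0 against 4.95 CPM, a ratio of 4.85 (3.38 to 6.80), in 12 nuclei, of which 1 held 19 of the 39 UMIs. Without that nucleus the Esr1 ratio was 2.53. Of 16 measured hormone and metabolic receptor genes 2 were higher and 3 lower, beside 1.62% and 5.44% of all genes measured. The lower genes were Lepr, Ghr and Tacr3, the receptor genes of leptin, growth hormone and neurokinin B, and against other neurons Tacr3 alone was lower. Th, the gene of the rate-limiting enzyme of dopamine synthesis, was the only one of 9 monoamine and acetylcholine genes that was higher, at 10.5 against 2.73 CPM, a ratio of 3.83 (2.17 to 6.33). Of the 11 nuclei with Th, 10 held Gad2 and 3 held Slc17a6, beside 77 and 100 of all 171 chosen nuclei. The choice of nuclei changed some of these calls. Without Nkx2-1 in the rule the Esr1 ratio was 0.559, on 2 UMIs, Tac1 was at 1.56 and Pomc at 9.45.

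Genes with other roles were also among those with the largest ratios. Ros1, a receptor tyrosine kinase gene, was at 17.8 against 1.77 CPM, a ratio of 10.1 (6.43 to 15.4), in 12 nuclei. Gda, the guanine deaminase gene, was at 19.1 against 3.00 CPM, a ratio of 6.36 (4.19 to 9.37), in 22 nuclei. Nptx2, which encodes a secreted synaptic pentraxin, had a ratio of 6.21 (3.65 to 10.1), and Npy2r, a receptor gene for neuropeptide Y, had 9 UMIs and a ratio of 6.46 (2.79 to 13.3). The following genes reached more nuclei. The imprinted zinc finger gene Zim1 was at 41.8 against 8.98 CPM in 51 nuclei and the calcium-binding protein gene Calb1 at 56.0 against 13.1 CPM in 45. By contrast, all 19 UMIs of Tnfrsf22 came from 1 nucleus. The genes with the smallest ratios had no UMI in the chosen nuclei. The first was Trp73, a p53 family gene of Cajal-Retzius and choroid cells, at 18.1 CPM in the other nuclei, and a floor of 3 UMIs put its ratio at 0.102 or below. Slco1a4, an organic anion transporter gene of brain vessels, followed at 11.8 CPM in the others.

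Markers of other cell classes were mostly lower or near the level of the rest. The 12 neuronal genes had a median ratio of 1.19, and none of them was higher or lower. Lower levels were found for 6 of 10 cell cycle, 6 of 8 radial glia and 7 of 8 fibroblast genes. The same held for 4 of 8 choroid plexus, 6 of 8 endothelial and 4 of 8 microglial genes. Over all genes measured, 5.44% were lower against all other nuclei. That comparison includes progenitors, which the rule limited through Sox2, Hes5 and Nes, and non-neuronal nuclei. Against other neurons, 2.64% of all genes measured were lower. Of the lists, 2 of the 10 cell cycle, 2 of 8 radial glia and 4 of 8 fibroblast genes were lower there. So were 4 of 8 choroid plexus, 1 of 8 endothelial and 2 of 8 microglial genes, and the summed endothelial level had a ratio of 1.05. The choroid plexus gene Ttr was at 208 CPM in the chosen nuclei and 1191 in the others. The summed level of the endothelial list was 83.7 CPM against 167, with UMIs in 26 nuclei, and 1 nucleus held 24 of the 50 Flt1 UMIs. Of 8 erythroid genes, 7 were measured and 2 were lower, Hba-a1 and Hbb-y. Of 8 tanycyte and pituitary genes, 3 were measured and none was higher or lower, and of 4 measured retina genes Mitf was lower.

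Telencephalic and thalamic genes were lower in part. Of 10 telencephalic genes 4 were lower, with Tbr1 at 3.69 against 13.0 CPM, Emx1 at 5.54 against 12.6, Nr2e1 at 3.69 against 16.8 and Lhx2 as above. Neurod6, a factor of cortical excitatory neurons, was at 20.9 against 36.9 CPM, a ratio of 0.568 (0.392 to 0.796), and had UMIs in 13 of the 171 nuclei. Of its 34 UMIs 14 came from 1 nucleus, without which the ratio was 0.339. Among 10 thalamic and pretectal genes Sox14 was higher, and Lef1, Gata3 and Tal1 were lower. Of 9 measured factors of the GABAergic lineage 3 were lower, among them Sp9 at 9.84 against 25.3 CPM. The part of free RNA or of nuclei from other regions in the remaining Neurod6 UMIs was not tested.

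Levels of genes outside the rule were then set against the number of rule UMIs, among nuclei that met every other step. Groups with 0, 1, 2 and at least 3 rule UMIs had 4722, 386, 99 and 72 nuclei and median depths of 4241, 5531, 7544 and 7850.5 UMIs. Pomc was at 3.48, 5.60, 46.1 and 61.7 CPM over these groups, with a ratio of 8.23 (4.43 to 16.1) between 2 and 1 UMIs, across the threshold. Without the nucleus with 23 Pomc UMIs the nuclei with 2 rule UMIs were at 19.1 CPM. The ratio across the threshold was then 3.41 (1.58 to 7.40), and that of at least 3 to 2 UMIs was 3.23 (1.80 to 6.1). With all nuclei the Pomc ratio of at least 3 to 2 UMIs was 1.34. It was 0.917 without the nucleus with 16 Pomc UMIs, which held at least 3 rule UMIs. The intervals of these last ratios held 1, so a rise of Pomc within the chosen nuclei depended on which nucleus was left out. Isl1 stood at 56.9, 90.3, 129 and 155 CPM, and Slc17a6 at 112, 140, 146 and 195. Gad2 went the other way, at 288, 247, 222 and 168 CPM.

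Esr1 and Six3 differed chiefly within the chosen nuclei. Esr1 was at 6.2, 8.21 and 5.91 CPM with 0, 1 and 2 rule UMIs and at 43.7 with at least 3, a ratio of the last to the third of 7.40 (2.88 to 24.2), or 3.39 (1.17 to 11.9) without the nucleus with 19 Esr1 UMIs. Six3 was at 24.8 and 73.2 CPM with 2 and at least 3 rule UMIs, a ratio of 2.95 (1.76 to 5.13). Calb1 differed outside the chosen nuclei as well, at 11.7, 22.0, 33.1 and 80.9 CPM over the groups. Its ratio of at least 3 to 2 UMIs was 2.45 (1.54 to 3.97). The nuclei with exactly 2 UMIs were thus near those with 1 UMI for Esr1 and Six3. For Nkx2-4, 1.40 CPM with 0 UMIs compared with 9.33 with 1, 9.45 with 2 and 20.6 with at least 3. Agrp did not follow the number, at 61.8, 62.7, 68.5 and 52.7 CPM.

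**Figure D3:**
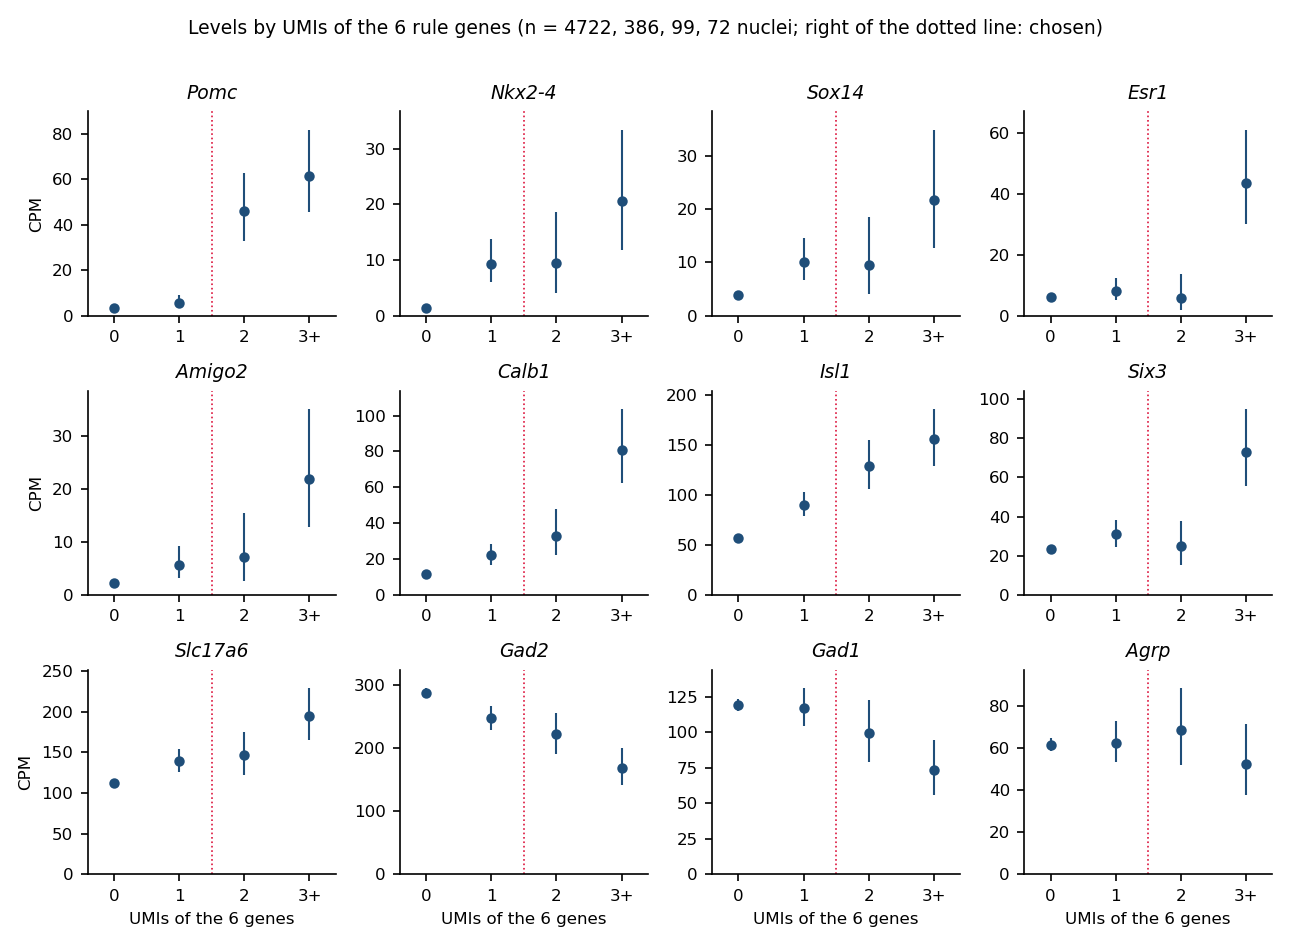
CPM (y axes) of 12 genes outside the rule in nuclei with 0, 1, 2 or at least 3 UMIs of the 6 rule genes (x axes; 4722, 386, 99 and 72 nuclei), with exact 95% Poisson intervals and a dotted line before the chosen nuclei. Pomc stood at 5.60 and 46.1 CPM on the 2 sides of the line, Esr1 and Six3 were higher with at least 3 UMIs, Gad2 was lower, and Agrp stayed between 52.7 and 68.5 CPM.

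The subsets differed in genes that the rule did not use. In the 48 nuclei with Nr5a1 or Fezf1, Pomc was at 107 CPM, against 12.8 in the Hmx nuclei and 14.4 in the Nkx2-1 alone nuclei. Nkx2-2 followed the same order, at 34.8, 10.7 and 11.2 CPM. Six3 was at 76.1 CPM against 23.5 and 41.7, and Sox14 at 28.3 against 4.26 and 14.4, with 10 nuclei that held Sox14 in the first subset, 1 in the second and 8 in the third. For Sox14 and Six3 the interval of the ratio of Hmx to Nr5a1 or Fezf1 nuclei lay below 1, at 0.151 (0.0165 to 0.666) and 0.308 (0.141 to 0.621). Sst, the somatostatin gene, was also among the leading genes of this subset against the other chosen nuclei, at 58.7 against 21.5 CPM in 8 nuclei, as were the proprotein convertase gene Pcsk5 at 128 against 38.6, the zinc finger gene St18 and the antisense RNA Six3os1. Single nuclei held 13 of the 27 Sst UMIs and 17 of the 37 St18 UMIs. Without them the ratios to the other chosen nuclei fell from 2.74 to 1.44 (0.693 to 2.88) for Sst and from 3.02 to 1.79 (0.967 to 3.24) for St18, with 1 inside both intervals.

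The 48 Hmx nuclei stood apart from the other subsets by an orphan nuclear receptor and by GABAergic genes. Rorb was at 595 CPM there, against 124 in the Nr5a1 or Fezf1 nuclei and 75.3 in the Nkx2-1 alone nuclei, a ratio of 4.80 (3.60 to 6.50) to the former. It had UMIs in 33 of the 48 nuclei, with 41, 28 and 22 UMIs in the highest 3. Dlx1, a homeobox factor of forebrain GABAergic neurons, was at 162 CPM against 26.1 and 44.9, and Slc32a1, the vesicular GABA transporter gene, at 49.0 against 8.70 and 9.61. Gad2 was at 254 against 135 and 194 CPM, with a ratio of 1.88 (1.37 to 2.60) to the Nr5a1 or Fezf1 nuclei. In the latter, 30 of the 62 Gad2 UMIs came from 1 nucleus, without which they were at 76.2 CPM and the ratio was 3.33 (2.24 to 5.08). This nucleus, the deepest of the 171 with 40136 UMIs, was also the one with 17 St18, 17 Isl1 and 75 Meis2 UMIs. Without the nucleus with 5 of the 12 Dlx1 UMIs of the Nr5a1 or Fezf1 nuclei, the Dlx1 ratio of Hmx to these nuclei went from 6.21 to 9.92 (4.59 to 25.5). With the highest Hmx nucleus of each gene left out instead, the ratio was 5.35 (2.86 to 10.9) for Dlx1. For Gad2 it was then 1.78 (1.29 to 2.48).

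Peptide and amine genes in the Hmx nuclei came from few nuclei. Nts, the neurotensin gene, was at 44.8 CPM, against 2.17 and 1.6 in the other 2 subsets. Of the 11 chosen nuclei with Nts, 9 were Hmx nuclei, and 10 of the 11 held Gad2. Gad2 was held by 34 of all 48 Hmx nuclei and by 77 of all 171 chosen nuclei. Th was at 23.5 CPM against 4.35 and 6.41, and 7 of the 11 nuclei with Th were Hmx nuclei. Cdh20, a cadherin gene, was at 258 against 46.7 CPM in the other chosen nuclei, in 29 Hmx nuclei. Some leaders of this subset rested on single nuclei. The serotonin receptor gene Htr2c had 22 of its 59 UMIs in 1 of them. Mecom, a zinc finger gene, had 38 of 41 in another, which also held 66 UMIs of the 5 endothelial genes. All 8 UMIs of Penk, the enkephalin gene, came from 1 nucleus.

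The 69 nuclei chosen on Nkx2-1 alone were the most mixed. Pmch was at 191 CPM, against 10.9 in the Nr5a1 or Fezf1 nuclei and 21.3 in the Hmx nuclei, but its 119 UMIs came from 7 nuclei, and 3 of these held 58, 31 and 26. Without the first it was at 98.0 CPM. Meis2 was at 678 CPM against 372 and 232, and single nuclei held 75 of the 171 Meis2 UMIs behind the second value and 43 of the 109 behind the third. Without each of them those levels were 229 and 146 CPM. Among the Nkx2-1 alone nuclei, 1 held 70 of the 423 Meis2 UMIs, and without it the level there was 586 CPM. Cntnap5c, a contactin-associated protein gene, was at 163 against 36.0 CPM in the other chosen nuclei, in 24 nuclei, and the radial glia genes Slc1a3 and Prdm16 were at 65.7 against 19.0 and 114 against 34 CPM. Without the nucleus that held 18 of the 41 Slc1a3 UMIs, Slc1a3 was at 38.1 CPM, a ratio of 2.01 (1.04 to 3.89) in place of 3.46. Both were below the 141 and 153 CPM of all other nuclei. Isl1 differed less between subsets than these genes, at 117 CPM here, 150 with Nr5a1 or Fezf1 and 177 with Hmx. Without the nucleus that held 17 Isl1 UMIs, the Nr5a1 or Fezf1 nuclei were at 124 CPM.

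**Figure D4:**
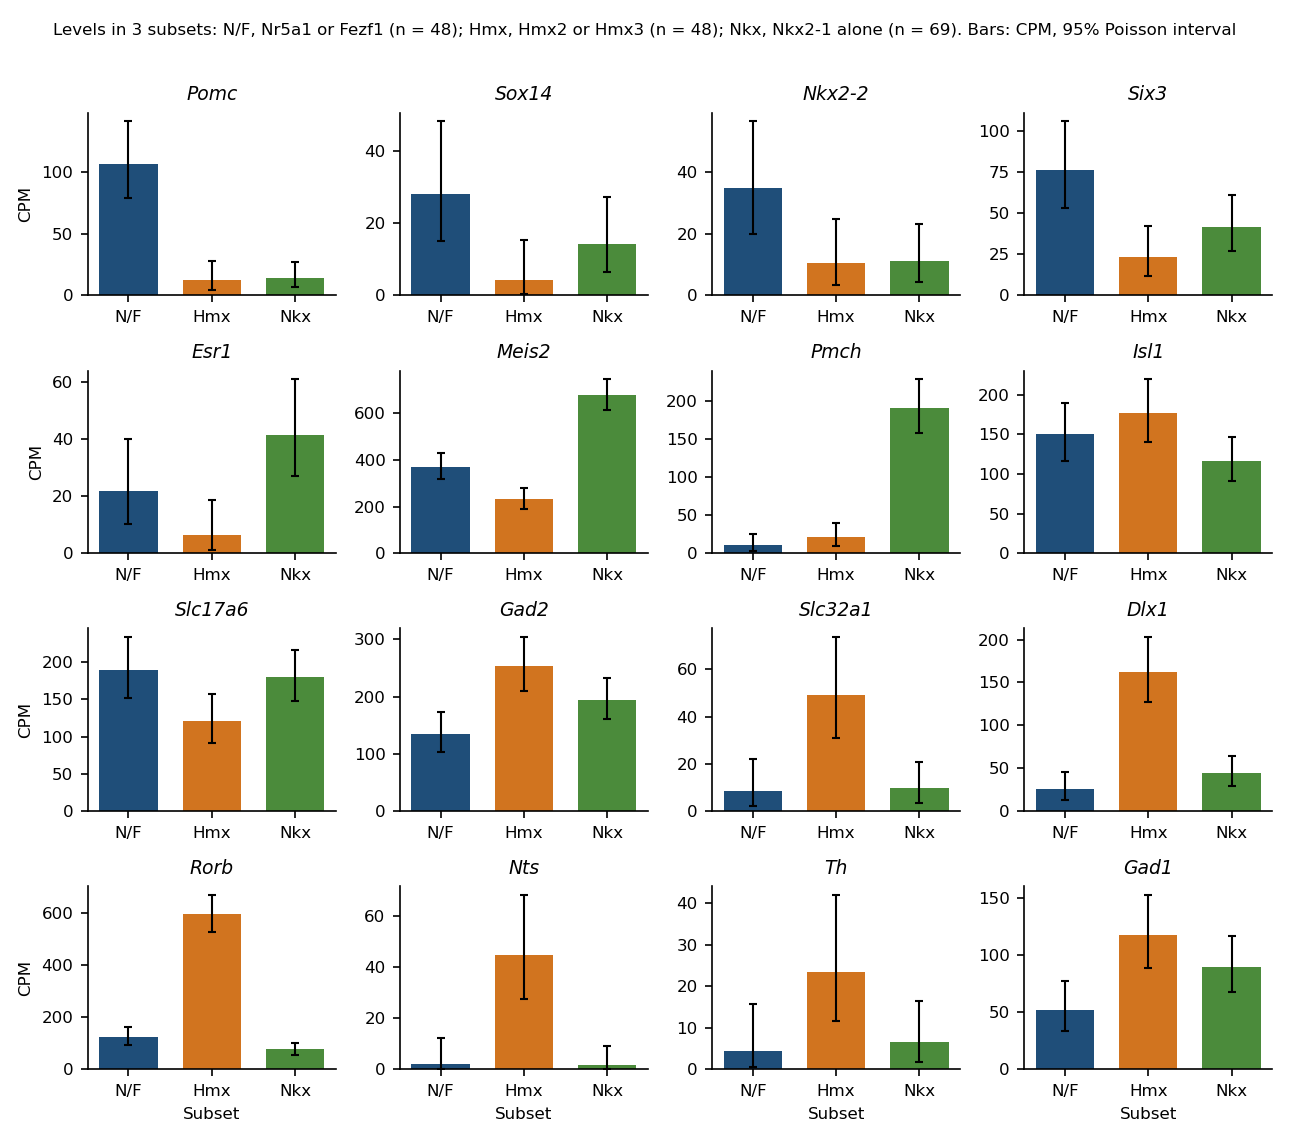
CPM (y axes, from 0) of 16 genes in the nuclei with Nr5a1 or Fezf1 (N/F, 48), with Hmx2 or Hmx3 (Hmx, 48) and chosen on Nkx2-1 alone (Nkx, 69), as bars with exact 95% Poisson intervals. Pomc was highest in the first subset at 107 CPM, Rorb in the second at 595, and Meis2 and Pmch in the third at 678 and 191, where 58 of the 119 Pmch UMIs came from 1 nucleus.

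The transmitter genes were read per nucleus. Of the 171 nuclei, 62 held Slc17a6, the vesicular glutamate transporter gene of hypothalamic and thalamic neurons, and none of Gad1, Gad2 and Slc32a1 (36.3%, 29.1% to 43.9%). A GABA gene without Slc17a6 was held by 46 (26.9%, 20.4% to 34.2%), 38 held both and 25 neither. In all other nuclei the shares were 18.3% and 41.0%. The background, measured in 265 endothelial nuclei of median depth 11125 UMIs, was 9.81% for Slc17a6 alone and 27.2% for GABA genes alone. Of these nuclei 65.7% held at least 5 UMIs of the neuronal genes and 42 were among those with the highest doublet scores, and the parts of free RNA and of doublets in this background were not tested. With each nucleus thinned to 1500 UMIs, which left out no nucleus, the chosen nuclei were at 15.8% (10.7% to 22.1%) and 22.8% (16.7% to 29.8%), the endothelial nuclei at 4.53% and 20.0%, and the Neurod6 nuclei, of median depth 8842, at 15.7% and 16.3%. The Slc17a6 share was thus above that of endothelial nuclei and close to that of Neurod6 nuclei, and the interval of the GABA share held the endothelial share.

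By level, Slc17a6 was at 170 CPM in the chosen nuclei and 116 in the others, a ratio of 1.46 (1.29 to 1.65), below the 2-fold limit. Gad1 and Gad2 were at ratios of 0.655 (0.551 to 0.774) and 0.662 (0.591 to 0.740), and Slc32a1 at 0.963 (0.664 to 1.35). Slc17a7, the transporter gene of cortical neurons, was the lower one of the 3 glutamate genes, with 3 UMIs, and none of the 4 GABA transmission genes was higher or lower.

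The subsets differed in these shares. Among the Nr5a1 or Fezf1 nuclei 43.8% (29.5% to 58.8%) held Slc17a6 alone and 6.25% (1.31% to 17.2%) a GABA gene alone. Among the Hmx nuclei these shares were 18.8% (8.95% to 32.6%) and 52.1% (37.2% to 66.7%), so the intervals of the GABA share did not overlap and those of the Slc17a6 share did. Thinned to 1500 UMIs, GABA genes alone were at 43.8% (29.5% to 58.8%) in the Hmx nuclei and 6.25% in the Nr5a1 or Fezf1 nuclei. The first interval lay above the 20.0% of endothelial nuclei and the second share below it. The Hmx interval held the 34.1% of all other nuclei and the 37.4% of other neurons, so this share was not particular to the Hmx nuclei. The Slc17a6 shares after thinning were 20.8% (10.5% to 35.0%) in the Nr5a1 or Fezf1 nuclei and 6.25% (1.31% to 17.2%) in the Hmx nuclei. The Nkx2-1 alone nuclei lay between, at 42% and 24.6% before thinning.

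Clustering of all 7531 nuclei gave 22 clusters, and the chosen nuclei fell in 19 of them. The leading one held 82 of the 171 (48%) among its 260 nuclei and was led by Nkx2-1, Pmch, Rasgrf2, Brinp3 and Cbln1. The next, with 877 nuclei and Pmch, Ecel1, Clstn2, Nell1os and Slc32a1 in front, held 27, of which 17 were Hmx nuclei, and a cluster of 492 nuclei with a median depth of 13443.5 UMIs held 15. Of the Nr5a1 or Fezf1 nuclei 32 of 48 (66.7%, 51.6% to 79.6%) were in the leading cluster, against 35 of 69 Nkx2-1 alone nuclei (50.7%, 38.4% to 63.0%) and 14 of 48 Hmx nuclei (29.2%, 17.0% to 44.1%). The clustering used all genes, so levels by cluster are given as a description.

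Transmitter genes had unequal levels in the chosen nuclei inside and outside the leading cluster, as did Esr1, Sox14 and Calb1. Intervals overlapped for Isl1, Rorb and Nkx2-4. Slc17a6 was at 273 CPM inside and 89.7 outside. Gad2 was at 31.0 inside and 325 outside, and Gad1 at 9.85 and 147. Neurod6 had no UMI inside and was at 37.2 CPM outside. Slc17a6 without a GABA gene was held by 65.9% (54.6% to 76.0%) of the 82 nuclei inside and 8.99% (3.96% to 16.9%) of the 89 outside, and after thinning by 30.5% and 2.25%. Of the genes named above, Esr1 was at 52.1 CPM inside and 2.19 outside, Sox14 at 29.5 and 4.37, and Calb1 at 94.3 and 26.2. Isl1 was at 155 (127 to 187) and 131 (109 to 157) CPM, Rorb at 242 and 247, and Nkx2-4 at 21.1 (11.8 to 34.8) and 9.84 (4.50 to 18.7).

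Outside the leading cluster, Neurod6 and Gad2 were near their level in nuclei that were not chosen. The ratio of the 89 chosen to the 7182 other nuclei there was 0.985 (0.680 to 1.38) for Neurod6 and 1.07 (0.955 to 1.21) for Gad2. Esr1 had 2 UMIs in these 89 nuclei and a ratio of 0.487, with a wide interval of 0.0586 to 1.78. With every nucleus included, the data for the cortical gene Neurod6 thus went against the label in the sum over these 89 nuclei. All 34 Neurod6 UMIs of the chosen nuclei lay here, and 1 nucleus held a large part of them, as given above. The ratio of the 89 nuclei without that nucleus was not computed. Other genes were higher in these 89 nuclei. Pomc was at 36.1 against 2.57 CPM, a ratio of 14.1 (9.31 to 20.7), and 23 of these 33 UMIs came from 1 nucleus, without which the ratio was 4.29 (2.02 to 8.14). Nkx2-4 had a ratio of 6.31 (2.79 to 12.6), Amigo2 of 5.42 (2.53 to 10.3), Th of 5.34 (2.78 to 9.43), Isl1 of 2.54 (2.10 to 3.05) and Rorb of 1.97 (1.72 to 2.25).

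Inside the leading cluster, the 82 chosen nuclei were close to the 178 that the rule did not take for Slc17a6, with a ratio of 1.18 (0.983 to 1.41), and for Isl1, at 1.22 (0.958 to 1.56). They were above them for Pomc, at 76.0 against 20.2 CPM and a ratio of 3.76 (2.36 to 6.09). For Esr1 the ratio was 2.42 (1.46 to 4.01) with the nucleus that held 19 UMIs and 1.23 (0.649 to 2.25) without it. They were below them for Gad1, at 0.206 (0.0800 to 0.447), Slc32a1, at 0.139 (0.0161 to 0.549), and Rorb, at 0.662 (0.554 to 0.787).

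**Figure D5:**
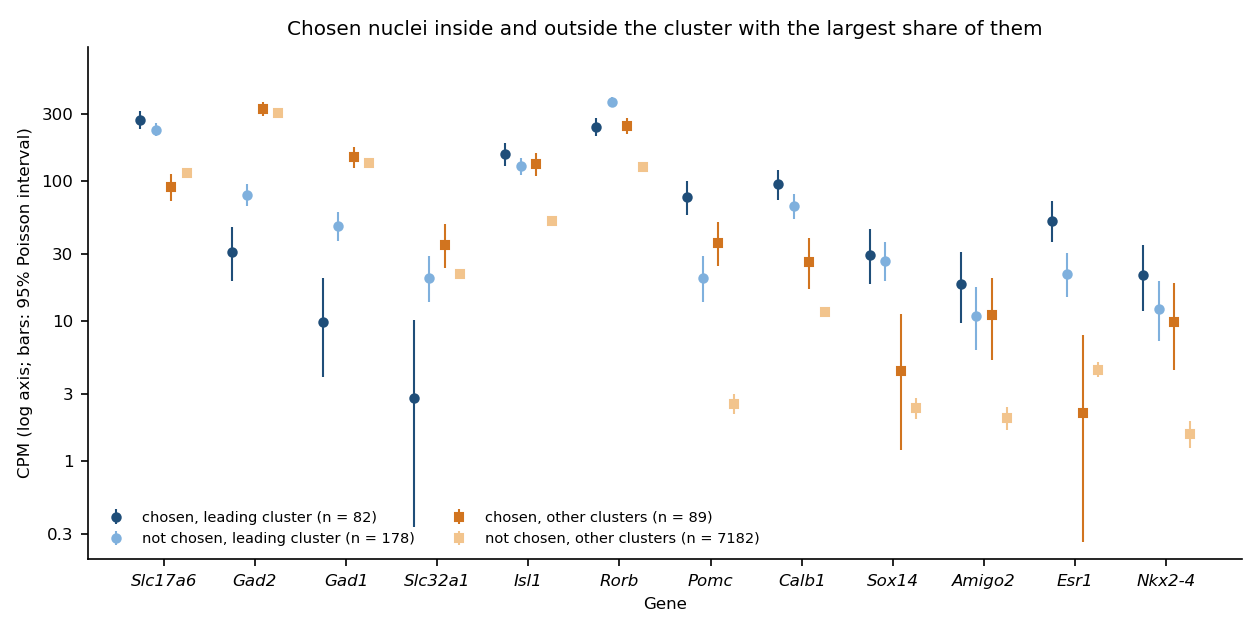
CPM (y axis, log scale, with exact 95% Poisson intervals) of 12 genes (x axis) in chosen nuclei inside (82) and outside (89) the leading cluster and in nuclei not chosen inside (178) and outside (7182) it. Gad2 and Slc17a6 levels of the chosen nuclei followed the cluster, at 31.0 against 325 and 273 against 89.7 CPM, while Pomc was higher in chosen than in other nuclei on both sides.

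The chosen nuclei were also compared with 847 nuclei with Sim1 or Otp and with 107 nuclei that met every step but held Lhx6 or Lhx8. Against the Sim1 and Otp nuclei, Pomc was at 53.5 against 2.19 CPM, a ratio of 24.4 (14.7 to 42.5), and Sox14, Nkx2-2 and Amigo2 had ratios of 8.89, 8.79 and 7.22. Isl1 was at 142 against 42.6 CPM, a ratio of 3.32 (2.81 to 3.93). Peptide genes of the Sim1 and Otp lineages went the other way. Trh, the thyrotropin-releasing hormone gene, was at 3.08 against 20.5 CPM, Cartpt at 5.54 against 49.7, and Avp, the vasopressin gene, at 0 against 7.38, where the floor of 3 UMIs gave a ratio of 0.25 or below. By summed level, transmitter genes were close, with ratios of 0.886 (0.777 to 1.01) for Slc17a6 and 1.12 (0.993 to 1.27) for Gad2. By nucleus, a GABA gene without Slc17a6 was held by 26.9% (20.4% to 34.2%) of the chosen and 13.3% (11.1% to 15.8%) of the Sim1 and Otp nuclei, whose median depth was 7365 UMIs. After thinning to 1500 UMIs these shares were 22.8% (16.7% to 29.8%) and 15.2% (12.9% to 17.8%), and the intervals overlapped. Slc17a6 without a GABA gene was held by 36.3% and 37.9%, and after thinning by 15.8% (10.7% to 22.1%) and 24.0% (21.1% to 27.0%).

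The nuclei with Lhx6 or Lhx8 were more GABAergic than the chosen ones. Slc17a6 was at 170 CPM in the chosen nuclei against 63.2, a ratio of 2.69 (2.13 to 3.42), and none of the 107 held Slc17a6 alone, which allows a share of up to 3.39% by the exact interval. Their median depth was 10015 UMIs. After thinning to 1500 UMIs, 3 of the 107 held Slc17a6 alone (2.80%, 0.582% to 7.98%), against 15.8% (10.7% to 22.1%) of the chosen nuclei. Gad1 was at 86.8 against 279 CPM, Gad2 at 196 against 511, and Dlx6os1, a noncoding RNA of the Dlx locus, at 186 against 1004, a ratio of 0.185 (0.163 to 0.209). Isl1, at a ratio of 2.49 (1.94 to 3.22), and Pomc, at 14 (6.17 to 39.1), were higher in the chosen nuclei than in this group as well.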

How the data were processed

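Nuclei of 1 E14 mouse brain library (Slide-tags, polyadenylated RNA) were analysed. The authors deposited whole-number UMI counts per gene and barcode, aligned to mm10 with intronic reads included. The file header names Cell Ranger 7.0.1. The study's methods describe background correction of embryo data by CellBender, and whether these counts had passed through it is not given in the sources used here. The 9037 barcodes held 58924407 UMIs over 32285 genes, and 7531 had at least 1500 UMIs. There were no other per-sample columns.

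With Python 3.11.15, numpy 2.4.6 and scipy 1.17.1, counts were summed over nuclei and divided by the summed UMIs of the group (CPM). Ratio intervals were conditional binomial, level intervals exact Poisson and share intervals exact binomial (Clopper-Pearson), all at 95% and for counting error only. Genes needed 20 UMIs over the nuclei compared, and the 13 genes the rule used were left out of counts of genes. The floor was 3 counts. Thinning drew 1500 UMIs per nucleus without replacement. Other neurons held at least 5 UMIs of 5 neuronal genes and at most 3 of Sox2, Hes5 and Nes, Neurod6 nuclei at least 2 UMIs of Neurod6, and endothelial nuclei at least 3 UMIs of 5 endothelial genes, and the Sim1 and Otp nuclei at least 2 UMIs of those genes. Clustering of all 7531 nuclei took its parameter values from the study's methods, which clustered another set of nuclei with another Seurat version (here Seurat 5.3.0 in R 4.3.3, scaling to 10000, 2000 variable genes, 30 principal components, resolution 0.8). Scrublet (scanpy 1.11.5) made 0 automatic calls, so the 653 nuclei with the highest scores, at the expected rate of 7.23%, were marked and kept. Positions came from GENCODE vM21. Figures were drawn with matplotlib 3.10.9. The group ratios and their calls were tested on simulated counts, and thinning was checked by the totals it left. The other calculations were not tested on simulated data.

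Genes named were those of the rule and of 25 lists, and, among genes with at least 50 UMIs, the 20 largest and 10 smallest ratios against all other nuclei, the 15 and 10 against other neurons, and 5 leading genes per subset. The nuclei and the lists were chosen with earlier results of these data known. Alternatives were 3 rule UMIs, a minimum of 3000 UMIs, removal of marked doublets, a rule without Nkx2-1, other neurons as comparison, thinning, other filters and other clusterings. A further alternative and some genes are not reported here. Chosen after seeing the data were leaving out each gene's highest nucleus, removing nuclei with endothelial UMIs, and the groups by rule UMIs and by cluster.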

Additional observations from a re-analysis of the deposited data

How the results depend on the processing

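No paired analysis was possible because a single library was analysed and no result came from a test. Of the share of nuclei chosen, 2.27% as reported, 0.956% remained with at least 3 rule UMIs, 2.77% with a minimum of 3000 UMIs and 0.916% with the rule without Nkx2-1. The genes that were higher numbered 322 as reported, 154 when each gene's highest nucleus was left out, and 238 to 390 under the other alternatives. Only 153 of the 322 were shared with the rule without Nkx2-1, and 98 after thinning. The genes that were lower numbered 1083 as reported, 502 against other neurons, 459 after thinning and 849 to 1246 otherwise. The share with Slc17a6 and no GABA gene, 36.3% as reported, was 44.4% with at least 3 rule UMIs, 26.1% without Nkx2-1 and 15.8% after thinning, and the share with a GABA gene alone, 26.9%, was 18.1% and 36.2% under the first 2. Removing marked doublets, or nuclei with endothelial UMIs, and other clusterings kept these results within their intervals or within 1.5 times. The Esr1 ratio turned to 0.559, on 2 UMIs, without Nkx2-1 in the rule, and Npy2r had a ratio of 0, with 0 UMIs left, after thinning. The cause of these moves was not tested, apart from the smaller counts that thinning and the stricter rule leave. Of 18 named genes that were higher, 11 stayed so in all 9 alternatives run for them, and the other 7 lost the call in at least 1. Examples were Sox14 after thinning, at 1 UMI, and Tac1 without Nkx2-1, at a ratio of 1.56. The alternatives that changed the filter on gene UMIs could not alter the ratio of a single gene, so they bear only on the counts of genes. Depth limits the assignment of single nuclei, since 99 of the 171 rest on 2 UMIs.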
